A study of Mus musculus with 12 samples.

Results

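The genes described are 9 that act in the plasminogen and coagulation systems, Plau, Plaur, Plat, Serpinb2, F3, F13a1, Thbd, Procr and Tfpi. They were taken from the deposited gene table by gene name, and all 9 names were found once among its 54532 genes. RNA of the whole mouse colon had been sequenced in 12 libraries, with 4 groups of 3. The Tmem173fl/fl genotype has a floxed gene for STING without a Cre, and Tmem173iΔmye mice carry in addition Lyz2-CreERT2, a tamoxifen-inducible Cre that the Lyz2 gene drives in myeloid cells. Both genotypes received 5 tamoxifen injections and were 6 to 8 weeks old. Colitis was induced in some mice of both genotypes by 7 days of dextran sulfate sodium (DSS), a polymer toxic to the gut lining, in the drinking water, followed by 1 day of water, and untreated mice had no DSS. The study describes its samples as randomly selected, and no source states that libraries were pooled. Age, housing batch and sex are not given per sample in the labels.

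Plasminogen is a zymogen made mainly by the liver. The urokinase-type activator (Plau), which binds a cell surface receptor (Plaur), and the tissue-type activator (Plat) cut it into plasmin, which degrades fibrin, and serpins, Serpinb2 among them, inhibit both activators. Coagulation starts when tissue factor (F3) on a cell surface meets factor VII, and it ends in fibrin, which factor XIII cross-links through its A subunit (F13a1). Tfpi inhibits tissue factor, while thrombomodulin (Thbd) and the endothelial protein C receptor (Procr) on vessel walls help thrombin activate protein C, an anticoagulant. In the inflamed gut, fibrin deposits and plasmin both take part in injury and repair.

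All 9 genes are annotated as protein coding, and their positions on GRCm38 are given as in the deposited table. Plau lies at chr14:20836660-20843385, Plaur at chr7:24462484-24475968 and Plat at chr8:22757727-22782844. Serpinb2 lies at chr1:107511423-107535478, F3 at chr3:121723537-121735048 and F13a1 at chr13:36867178-37050244. The vessel wall genes Thbd, at chr2:148404466-148408188, Procr, at chr2:155751117-155755471, and Tfpi, at chr2:84432855-84476775, share a chromosome. Thbd has 1 exon in GENCODE M21. Exons of Serpinb2 overlap those of Serpinb10 on the same strand and exons of F13a1 overlap those of Gm30489 on the other strand, so reads could be shared between them. Serpinb10 had at most 4 counts and Gm30489 at most 1 count in any library. These low counts do not show how reads in the overlaps were assigned, or whether they were left out.

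The RefSeq promoter table (GRCm38.p6, 250 bases before and 50 after each start site) holds windows for 6 of the 9 genes, Plaur, Serpinb2, F3, F13a1, Procr and Tfpi. Both strands were searched for AP-1 (TGANTCA), C/EBP (TTGCNNAA), Sp1 (GGGCGG), Egr1 (GCGNGGGCG), a TATA box (TATAAA) and NF-kB, by its name alone. AP-1 letters lie in windows of 4 genes, and the first window of each is printed because these genes differ widely in response. Capitals mark every motif found.
Plaur, chr7:24462233-24462532, + strand: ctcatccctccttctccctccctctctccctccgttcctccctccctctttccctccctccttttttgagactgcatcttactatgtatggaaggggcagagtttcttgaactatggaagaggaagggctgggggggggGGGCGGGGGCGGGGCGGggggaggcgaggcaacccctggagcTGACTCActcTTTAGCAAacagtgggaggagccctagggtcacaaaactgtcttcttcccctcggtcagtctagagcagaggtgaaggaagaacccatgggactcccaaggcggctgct
Procr, chr2:155750967-155751266, + strand: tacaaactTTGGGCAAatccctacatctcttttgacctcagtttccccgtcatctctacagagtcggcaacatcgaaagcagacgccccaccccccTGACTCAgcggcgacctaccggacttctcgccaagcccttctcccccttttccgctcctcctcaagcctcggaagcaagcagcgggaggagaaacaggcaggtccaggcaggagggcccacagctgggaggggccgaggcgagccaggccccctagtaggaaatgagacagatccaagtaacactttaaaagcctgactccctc
Serpinb2, chr1:107511173-107511472, + strand: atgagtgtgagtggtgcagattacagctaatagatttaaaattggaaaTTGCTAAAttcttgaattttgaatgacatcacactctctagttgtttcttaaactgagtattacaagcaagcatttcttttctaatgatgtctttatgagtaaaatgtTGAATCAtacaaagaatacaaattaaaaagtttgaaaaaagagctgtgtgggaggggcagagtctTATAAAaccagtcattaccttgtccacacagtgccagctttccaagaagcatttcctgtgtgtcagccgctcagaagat
F3, chr3:121723287-121723586, + strand: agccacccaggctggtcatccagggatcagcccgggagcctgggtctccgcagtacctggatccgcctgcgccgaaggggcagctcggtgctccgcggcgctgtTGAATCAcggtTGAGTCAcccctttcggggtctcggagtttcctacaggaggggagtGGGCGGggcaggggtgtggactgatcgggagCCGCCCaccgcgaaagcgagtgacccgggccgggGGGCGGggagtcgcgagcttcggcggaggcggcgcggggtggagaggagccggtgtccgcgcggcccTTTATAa

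In the Plaur window the AP-1 letters lie at -69 to -63 from the start site (position 0) and C/EBP letters at -59 to -52, and the Egr1 letters share bases with the Sp1 letters beside them. Procr has AP-1 letters at -154 to -148 and C/EBP letters at -242 to -235. Serpinb2 has AP-1 letters at -94 to -88, C/EBP letters at -202 to -195 and a TATA box at -29 to -24. Its second window, not printed, has them at -181 to -175, -19 to -12 and -116 to -111. F3 has AP-1 letters at -146 to -140 and again at -135 to -129, with Sp1 letters downstream. Of all 32851 windows, 7.81% hold the AP-1 letters, 10.8% C/EBP, 35.7% Sp1, 5.55% Egr1, 13.6% the TATA box and 4.51% NF-kB. No F13a1 window holds any of the letters, the Tfpi windows hold Sp1 and TATA letters only, and no window of the 6 genes holds NF-kB letters. These matches describe the sequence and show neither binding nor a cause.

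The libraries held 13823237 to 18718915 counts. Replicate 5 of the colitic Tmem173iΔmye mice stood apart: its counts differed from the others of its group by a chi-square of 88.1 and 129.8 per gene, against 31.9 to 72.9 for every other pair of replicates. It was also 1 of 3 libraries with the female pattern of sex-linked genes, beside replicate 3 of both untreated groups. Tmem173 was not called lower in colitic Tmem173iΔmye mice (log2 difference -0.28, SE 0.26, edgeR adjusted p 0.602), and counts summed over a gene in whole colon do not resolve an exon deletion in myeloid cells. Levels are CPM, counts per library total multiplied by its TMM factor (0.931 to 1.13). A gene was called at an edgeR quasi-likelihood adjusted p under 0.05 with a log2 change of at least 1 in size, among 24102 genes that passed a filter on low values. All 9 genes passed that filter.

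With DSS, 8 of the 9 genes rose in Tmem173fl/fl mice and the exception, F3, had an adjusted p of 0.0225 but a change under the fold limit. The background was 14.9% of all genes tested called higher. The colitic libraries lay wholly above the untreated ones for 9 of 9 genes, as they did for 23.9% of all genes. The median log2 change of the 9 genes was 2.23, beside 0.03 over all genes tested. In whole tissue, more cells of a type and more RNA per cell cannot be told apart.

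**Figure D1:**
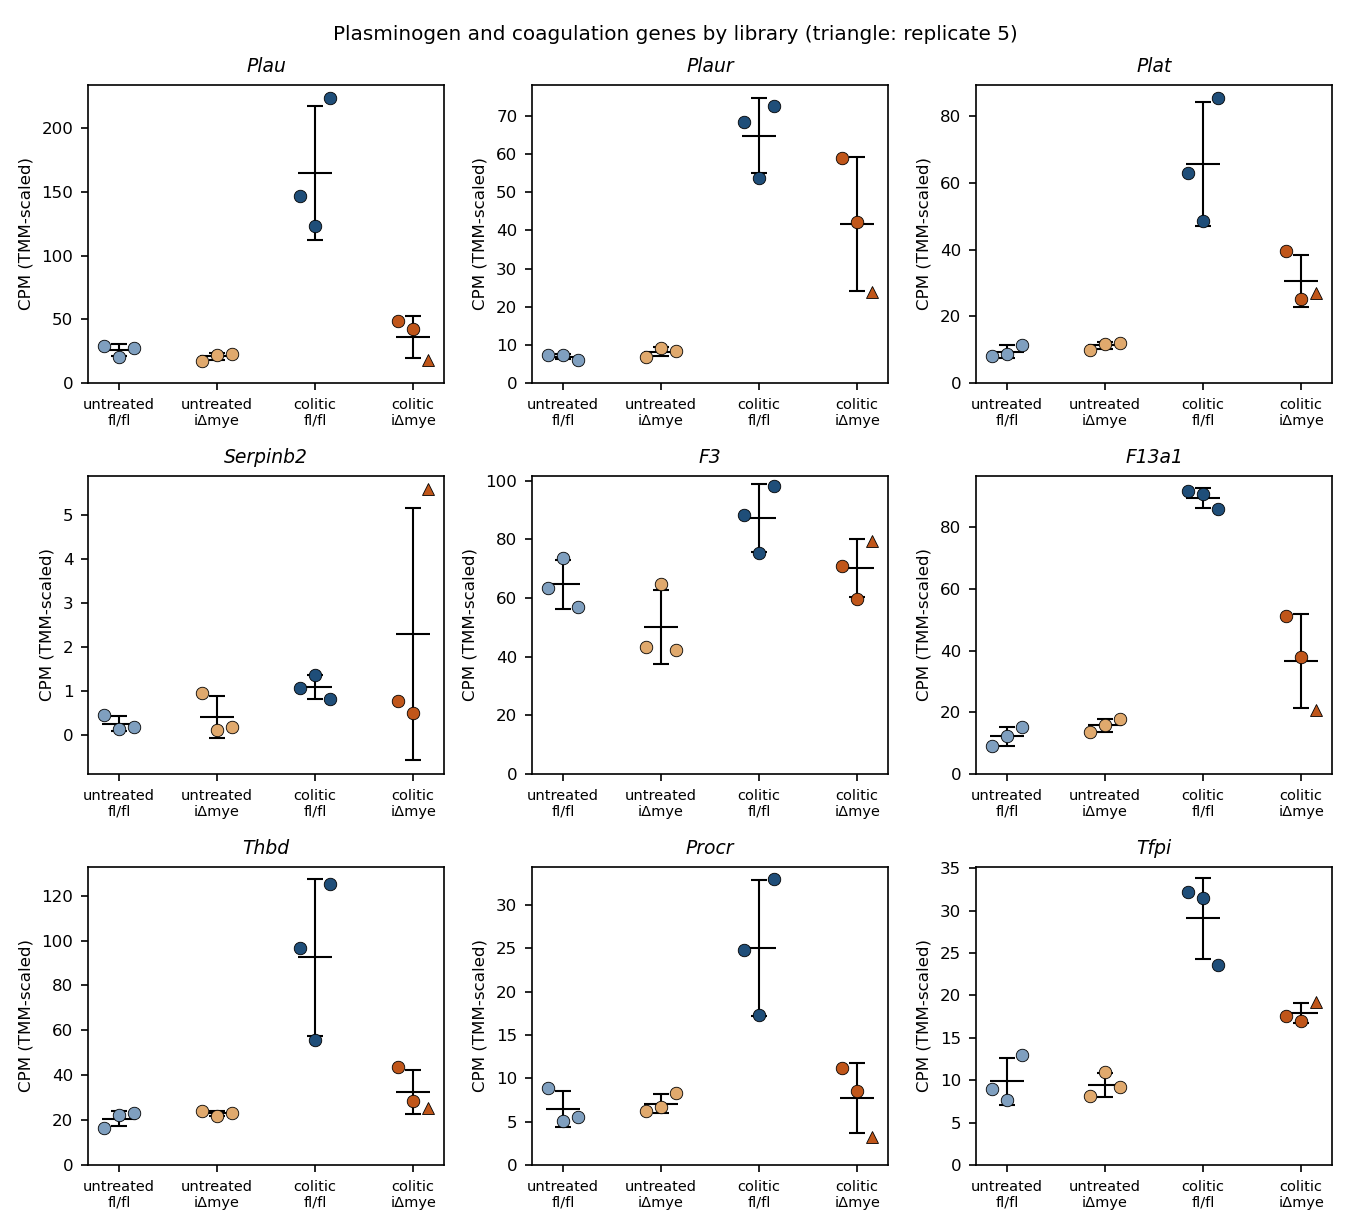
TMM-scaled CPM of the 9 genes (vertical axes from 0 or below, linear) in each library of the 4 groups (horizontal axes), with bars for the mean and SD of 3 libraries and a triangle for replicate 5. All 3 colitic Tmem173fl/fl libraries lie above the untreated Tmem173fl/fl libraries for every gene, and Serpinb2 of replicate 5 stands at 5.58 CPM.

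Among the activators, Plau was at 29.4, 20.4 and 27.2 CPM in untreated Tmem173fl/fl mice and at 147, 124 and 224 CPM in colitic ones. Every colitic library was far above the untreated range. The rise was 6.74-fold (log2 2.75, SE 0.24, edgeR adjusted p 2.3e-05). Plat, the tissue-type activator, went from 8.03, 8.60 and 11.5 CPM to 63.1, 48.6 and 85.7 CPM, a 7.32-fold rise (log2 2.87, SE 0.24, edgeR adjusted p 1.63e-05). The urokinase receptor gene Plaur had the largest change of the 9, from 7.27, 7.24 and 6.14 CPM to 68.4, 53.6 and 72.5 CPM (9.88-fold, log2 3.30, SE 0.17, edgeR adjusted p 1.22e-06). Its untreated libraries were close together and its colitic libraries were all far above them.

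Serpinb2, the inhibitor, was scarce. It had 6, 2 and 3 counts in the untreated Tmem173fl/fl libraries and 20, 29 and 12 in the colitic ones. The log2 change was 2.15 (SE 0.57, edgeR adjusted p 0.0148). The call was lost in 1 fit of all 12 libraries (edgeR adjusted p 0.124) and without untreated replicate 2, untreated replicate 3 or colitic replicate 2, at edgeR adjusted p from 0.0514 to 0.0572.

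F3, the gene of tissue factor, had the highest FPKM of the 9 genes in untreated colon and changed least with DSS. It was at 63.3, 73.6 and 57.1 CPM without DSS and at 88.3, 75.3 and 98.2 CPM with it, so the lowest colitic library was only just above the highest untreated one. The change was 1.42-fold (log2 0.50, SE 0.15). F13a1, the cross-linking subunit, went from 9.01, 12.2 and 15.3 CPM to 91.5, 90.8 and 85.7 CPM, and the colitic libraries were nearly alike. The rise was 7.67-fold (log2 2.94, SE 0.19, edgeR adjusted p 4.13e-06).

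Of the anticoagulant genes, Thbd went from 16.7, 22.3 and 23.0 CPM to 96.9, 55.7 and 125 CPM (4.69-fold, log2 2.23, SE 0.27, edgeR adjusted p 0.000167), with more spread among colitic mice than for F13a1. Procr went from 8.86, 5.08 and 5.51 CPM to 24.8, 17.3 and 33.0 CPM (4.05-fold, log2 2.02, SE 0.29, edgeR adjusted p 0.000488). In both genes replicate 3 was the highest and replicate 2 the lowest colitic library. Tfpi went from 8.94, 7.72 and 12.96 CPM to 32.2, 31.5 and 23.6 CPM (3.08-fold, log2 1.62, SE 0.23, edgeR adjusted p 0.000459), and here replicate 3 was the lowest.

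In Tmem173iΔmye mice DSS raised 2 of the 9 genes, Plaur and Plat, against 1.48% of all genes called higher. The median of the 9 was 0.92, beside 0.02 over all genes. The colitic libraries lay wholly above the untreated ones for 5 of the 9 genes, Plaur, Plat, F13a1, Thbd and Tfpi, against 12.1% of all genes.

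Plaur was at 6.86, 9.22 and 8.42 CPM in untreated Tmem173iΔmye mice and at 58.9, 42.2 and 23.8 CPM in colitic ones, for replicates 1, 2 and 5 (5.09-fold, log2 2.35, SE 0.33, edgeR adjusted p 0.00761). Plat went from 10.01, 11.8 and 12.02 CPM to 39.6, 25.1 and 27.0 CPM (2.70-fold, log2 1.43, SE 0.25, edgeR adjusted p 0.0181). Both calls were lost without any 1 of the untreated Tmem173iΔmye libraries, at edgeR adjusted p from 0.0864 to 0.157, while the log2 changes stayed at 1.36 or more. Plau, by contrast, was at 17.5, 22.04 and 23.1 CPM without DSS and at 48.9, 42.2 and 17.9 CPM with it. Replicates 1 and 2 were above the untreated range and replicate 5 was inside it, and the log2 change of 0.80 (SE 0.33) had an edgeR adjusted p of 0.283. Without replicate 5 Plau was called (log2 1.15, edgeR adjusted p 0.00728).

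F13a1 was at 13.7, 15.7 and 17.7 CPM without DSS and 51.1, 37.8 and 20.7 CPM with it, a log2 change of 1.21 (SE 0.31, edgeR adjusted p 0.0822). It was called without replicate 5 (log2 1.53, edgeR adjusted p 0.00219), and also with DESeq2, with no filter and in 1 fit of all 12 libraries. Thbd was at 23.8, 21.8 and 23.4 CPM and then at 43.8, 28.4 and 25.4 CPM, a log2 change of 0.50 (SE 0.24, edgeR adjusted p 0.359). Tfpi was at 8.19, 10.96 and 9.20 CPM and then at 17.6, 17.0 and 19.2 CPM, a log2 change of 0.92 (SE 0.24, edgeR adjusted p 0.0869). These 3 genes did not overlap between treated and untreated libraries, although none was called with all 6 libraries in the main edgeR test.

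Procr, the protein C receptor, was at 6.25, 6.65 and 8.36 CPM without DSS and 11.2, 8.59 and 3.28 CPM with it. Replicate 5 was below every untreated library and the other two were above, so the log2 change was 0.11 (SE 0.42, edgeR adjusted p 0.934). F3 was at 43.3, 64.7 and 42.4 CPM and then at 71.1, 59.8 and 79.5 CPM (log2 0.48, SE 0.22, edgeR adjusted p 0.328). Serpinb2 had 16, 2 and 3 counts without DSS and 11, 8 and 92 with it. Its log2 change of 2.42 (SE 1.001, edgeR adjusted p 0.276) was 0.61 without replicate 5 and 3.87 without untreated replicate 1, the library with 16 counts, and was called in neither case. The squamous epithelial marker list, summed, was at 28.0 CPM in colitic replicate 5 and at 98.99 and 37.3 CPM in colitic replicates 1 and 2. The part of squamous epithelium in the Serpinb2 counts was not tested.

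Without DSS, 0 of the 9 genes were called between the genotypes by edgeR, as were 0% of all genes called higher. At an unadjusted p under 0.05 there were 0 of the 9 genes and 720 of all genes, and DESeq2 called 3 of all genes and 0 of the 9. The libraries of both genotypes overlapped for all 9 genes. The log2 differences ran from -0.36 for F3 to 0.72 for Serpinb2 (SE 0.90), each with an edgeR adjusted p of 1, and the SE of the other 8 ran from 0.18 to 0.27.

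**Figure D2:**
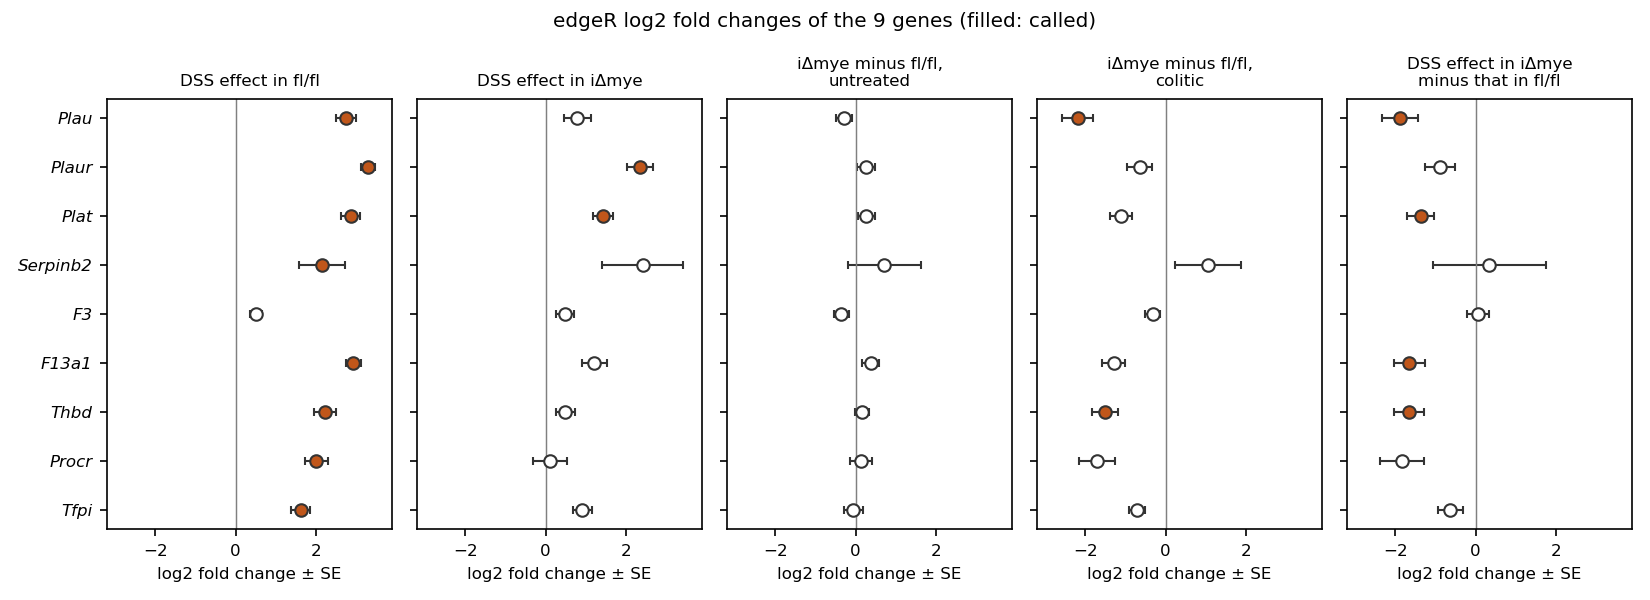
Log2 fold change with its SE (horizontal axes) of the 9 genes (rows) in 5 edgeR comparisons, filled where called. Filled points number 8 for DSS in Tmem173fl/fl mice, 2 for DSS in Tmem173iΔmye mice, 0 between untreated genotypes, 2 between colitic genotypes and 4 for the difference between the DSS effects.

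Between colitic mice, Plau and Thbd were called lower in Tmem173iΔmye than in Tmem173fl/fl mice, 2 of the 9 genes against 1.99% of all genes called lower. The libraries of colitic Tmem173iΔmye mice lay wholly below those of colitic Tmem173fl/fl mice for 6 of the 9 genes, Plau, Plat, F13a1, Thbd, Procr and Tfpi, against 14.8% of all genes. The median difference of the 9 was -1.11, beside 0.02 over all genes. This comparison uses the same colitic Tmem173fl/fl libraries as the DSS comparison above, so a high colitic library moves both.

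Plau was 4.56-fold lower (log2 -2.19, SE 0.38, edgeR adjusted p 0.0276), at 17.9 to 48.9 CPM against 124 to 224 CPM. Thbd was 2.85-fold lower (log2 -1.51, SE 0.33, edgeR adjusted p 0.0470), at 25.4 to 43.8 CPM against 55.7 to 125 CPM. Both lost the call without replicate 1 or 3 of the colitic Tmem173fl/fl mice or replicate 2 of the Tmem173iΔmye mice. For Plau the edgeR adjusted p was then 0.0851, 0.0666 and 0.0944, and for Thbd it was 0.169, 0.115 and 0.157. Thbd also lost it without replicate 5 (edgeR adjusted p 0.101), with RLE size factors (0.0519) and with the filterByExpr filter (0.0551).

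Of the genes not called, F13a1 differed by -1.30 (SE 0.30, edgeR adjusted p 0.0557), Plat by -1.11 (SE 0.27, 0.0633), Procr by -1.71 (SE 0.44, 0.0771) and Tfpi by -0.71 (SE 0.20, 0.101). DESeq2, 1 fit of all 12 libraries and no filter each called 5 of the 9 genes, these being Plau, Thbd, F13a1, Plat and Procr. F13a1, Plat and Procr were also called without replicate 1 of the colitic Tmem173iΔmye mice (edgeR adjusted p 0.0227, 0.0321 and 0.0456), and F13a1 without replicate 5 (0.0415). Plaur, the receptor gene, differed by -0.64 (SE 0.31, edgeR adjusted p 0.283), F3 by -0.32 (SE 0.18, 0.370) and Serpinb2 by 1.06 (SE 0.83, 0.513). Libraries of both genotypes overlapped for these 3 genes. Without replicate 5 the Serpinb2 difference was -0.79.

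The interaction tests whether the DSS effect differs between the genotypes. It called 4 of the 9 genes, each with a smaller rise in Tmem173iΔmye mice, against 1.61% of all genes called lower. Plau differed by -1.89 (SE 0.45, edgeR adjusted p 0.0403), Thbd by -1.66 (SE 0.38, 0.0363), F13a1 by -1.66 (SE 0.38, 0.0382) and Plat by -1.37 (SE 0.34, 0.0477). These calls lay close to the threshold and leaving out 1 library gave 0 to 6 genes, with 0 called without any of 8 of the 12 libraries and 6 without replicate 1 of the colitic Tmem173iΔmye mice. Procr differed by -1.83 (SE 0.54, edgeR adjusted p 0.0891), Plaur by -0.89 (SE 0.38, 0.234) and Tfpi by -0.64 (SE 0.31, 0.303). The F3 interaction was 0.05 (SE 0.27, edgeR adjusted p 0.958), and that of Serpinb2 was 0.34 (SE 1.41, 0.939). For Serpinb2 that SE leaves the direction undetermined.

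Levels of different genes were compared in FPKM, which divides by gene length. In untreated Tmem173fl/fl colon the order was F3 at 24.9 FPKM, Plau at 10.6, Thbd at 5.41, Procr at 3.11, Plaur at 2.56, F13a1 and Tfpi at 1.76, Plat at 1.47 and Serpinb2 at 0.107. The ranges of neighbours overlapped for Procr and Plaur, for F13a1 and Tfpi and for Tfpi and Plat. In colitic Tmem173fl/fl mice Plau led at 70.5 ± 22.8 FPKM (SD, n = 3), above F3 at 34.9 ± 4.74, and their ranges did not overlap. Thbd followed at 25.2 FPKM and Plaur at 25.1, then F13a1 at 13.4, Procr at 12.5, Plat at 10.7, Tfpi at 5.38 and Serpinb2 at 0.469. In colitic Tmem173iΔmye mice F3 was first again, at 27.4 ± 3.72 FPKM, and Plaur at 15.8 and Plau at 15.2 came next with overlapping ranges. Thbd was at 8.64 FPKM there, F13a1 at 5.37, Plat at 4.84, Procr at 3.75, Tfpi at 3.24 and Serpinb2 at 0.954. In untreated Tmem173iΔmye mice F3 at 19.4, Plau at 8.63 and Thbd at 6.05 FPKM led, as in the other untreated group.

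Ratios within each library were chosen after the values were seen and are given without a test. Plau to Plaur, ligand to receptor, was 3.11 to 4.90 in untreated Tmem173fl/fl and 2.64 to 3.03 in untreated Tmem173iΔmye mice. In colitic mice it was 2.38 to 3.42 in Tmem173fl/fl and 0.832 to 1.10 in Tmem173iΔmye mice, so the genotypes did not overlap with or without DSS. Plau to Plat, the ratio of both activators, was 6.22 to 9.65 and 4.60 to 5.06 without DSS. It was 6.15 to 6.90 in colitic Tmem173fl/fl mice and 1.75 to 4.42 in colitic Tmem173iΔmye mice, and here too the genotypes did not overlap with or without DSS. F3 to Tfpi, initiator to inhibitor, had means of 15.2 and 11.4 without DSS and 6.69 and 8.43 with it, and the colitic genotypes overlapped. Thbd to Procr had means of 1.90 and 1.799 without DSS and 1.99 and 2.72 with it, with overlapping ranges in all groups.

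**Figure D3:**
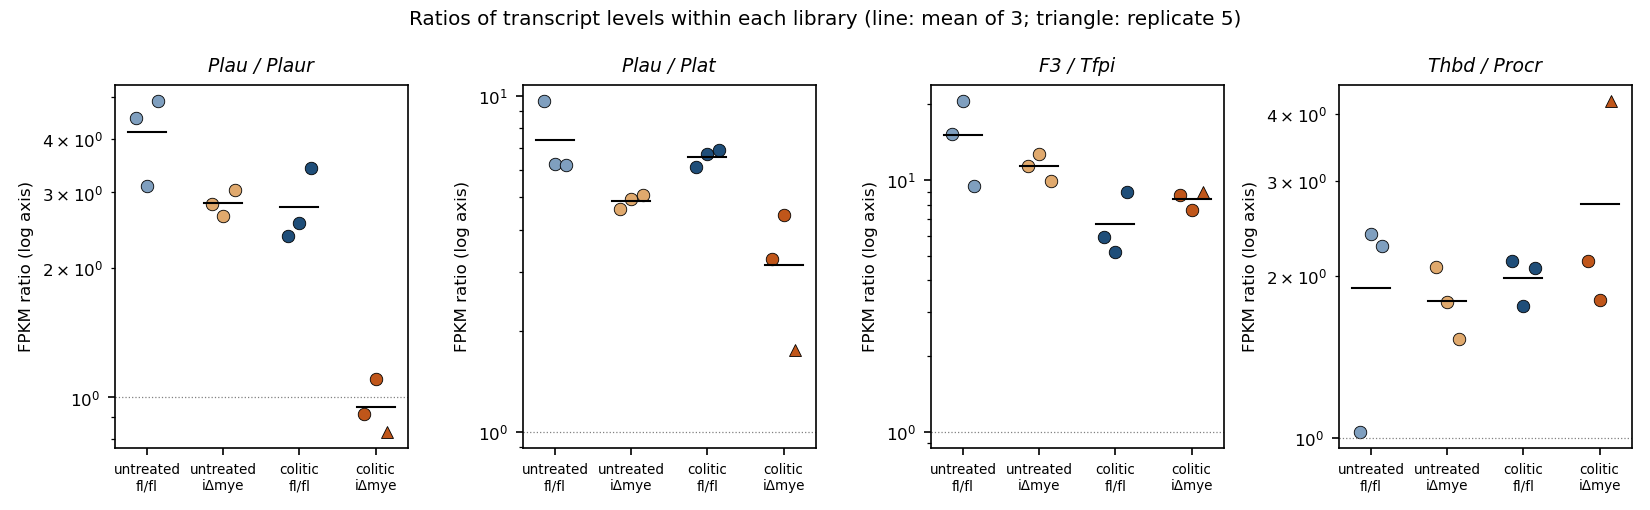
FPKM ratios of gene pairs (logarithmic vertical axes) in each library of the 4 groups, with a line for the mean of 3 and a triangle for replicate 5. The colitic genotypes do not overlap for Plau to Plaur (2.38 to 3.42 against 0.832 to 1.10) or Plau to Plat (6.15 to 6.90 against 1.75 to 4.42), nor do the untreated genotypes for these ratios (3.11 to 4.90 against 2.64 to 3.03 and 6.22 to 9.65 against 4.60 to 5.06), and colitic genotypes overlap for both other ratios.

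The rest of both systems was followed in a list of 47 other genes, of which 40 were tested. With DSS in Tmem173fl/fl mice 20 rose and 1 fell, with a median of 1.71, beside 14.9% of all genes called higher and an all-gene median of 0.03. In Tmem173iΔmye mice 6 rose and 0 fell, with a median of 0.75, beside 1.48% and 0.02. Between untreated genotypes 0 were called by edgeR, 0 had an unadjusted p under 0.05 and the median was 0.01. Between colitic genotypes 8 were lower and 0 higher in Tmem173iΔmye mice, with a median of -0.53, beside 1.99% of all genes called lower and 0.02. The interaction called 4, all lower, with a median of -0.66, beside 1.61% and 0.04. With genes at the floor of 3 counts per library set to their bound, and those with no usable fold left out, the medians were 1.49, 0.58, 0.04 and -0.50 for the first 4 comparisons. Plg, the zymogen itself, had 3 or fewer counts in every library.

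Among protease inhibitors, Serpine2, which encodes protease nexin 1, was at 6.21, 10.7 and 10.3 CPM in untreated and 246, 180 and 259 CPM in colitic Tmem173fl/fl mice (log2 4.72, SE 0.25, edgeR adjusted p 1.41e-06). In Tmem173iΔmye mice it was at 14.0, 14.1 and 8.18 CPM and then at 38.0, 46.0 and 31.7 CPM (log2 1.67, SE 0.27, edgeR adjusted p 0.0145). The colitic genotypes did not overlap, with a difference of -2.58 (SE 0.22, edgeR adjusted p 0.00571) and an interaction of -2.98 (SE 0.36, 0.0029). A2m, a broad protease inhibitor, rose by 5.47 and 3.48 and was called lower between colitic genotypes (log2 -1.78, SE 0.32, edgeR adjusted p 0.0284).

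Of the genes that bind plasminogen, plasminogen activators or their complexes, Mrc2, which encodes a partner of the urokinase receptor, rose by 3.22 in Tmem173fl/fl mice (edgeR adjusted p 9.04e-06). Lrp1, a clearance receptor for activator and inhibitor complexes, rose by 2.04. Both were called lower between colitic genotypes, with differences of -1.58 and -1.63, while the median of the 7 genes of this role was 0.33. Plgrkt, a plasminogen receptor, was the 1 gene of the list called lower with DSS in Tmem173fl/fl mice (log2 -1.13, edgeR adjusted p 0.000661), and it is named although the rule for names did not select it. S100a10 was at -0.98 (edgeR adjusted p 0.00442), just short of the fold limit. Plgrkt, Anxa2 and S100a10 had every colitic Tmem173iΔmye library above the colitic Tmem173fl/fl libraries, with differences of 0.85, 0.54 and 1.20, and none was called (edgeR adjusted p 0.0720, 0.279 and 0.0636). Over the list 5 of 40 genes lay wholly higher in this way, against 12% of all genes, and 15 of 40 lay wholly lower, against 14.8%.

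Clotting factor genes F10 and F5 rose in both genotypes, F10 by 3.47 and 3.35 and F5 by 3.37 and 2.01. Untreated libraries held few counts, 4 to 17 for F10 and 4 to 23 for F5. Every colitic Tmem173iΔmye library was below the colitic Tmem173fl/fl libraries for F5 (3.28 to 4.92 against 5.68 to 8.58 CPM), without a call. The interaction of F10 was -0.04 (SE 0.74, edgeR adjusted p 0.998). Vwf, which tethers platelets to vessel walls, rose by 2.81 in Tmem173fl/fl mice and had an interaction of -1.56 (edgeR adjusted p 0.0396), and Tgm2, a tissue transglutaminase, rose by 2.49. The thrombin receptor gene F2r rose by 1.37 and F2rl3 by 2.90, and F2r was called lower between colitic genotypes (log2 -1.03, edgeR adjusted p 0.0253). F2rl1, listed in the same role, went the other way at -0.74 with DSS in Tmem173fl/fl mice (edgeR adjusted p 0.0529). Its colitic Tmem173iΔmye libraries, at 103 to 165 CPM, lay wholly above the colitic Tmem173fl/fl ones, at 46.8 to 77.8 CPM, without a call. Pros1, which encodes the protein C cofactor protein S, rose by 2.28 and 1.14, with an interaction of -1.06 (edgeR adjusted p 0.0341).

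The fibrinogen genes, chosen after their values were seen, were counted almost only in colitic Tmem173fl/fl mice. Fgg, the gamma chain, had 21, 33 and 31 counts there and at most 2 in every other library, which makes it at least 7.78-fold higher than without DSS and at least 8.26-fold higher than in colitic Tmem173iΔmye mice, against a floor of 3 counts per library. Fgb had 32, 51 and 67 counts and Fga 31, 49 and 78, with at most 4 and 7 elsewhere. The hepatocyte marker list was summed at 24.2 to 33.2 CPM in that group and at 16.3 to 32.4 CPM in the others. Its members went different ways. With DSS in Tmem173fl/fl mice Ttr and Apoa2 fell, by 2.56 and 1.89 on the log2 scale, and Cyp2e1 rose by 2.21. Not called were Alb at -2.33 (edgeR adjusted p 0.0621), Apoa1 at 1.98 (0.142) and Ahsg at 0.66 (0.535). Between colitic genotypes Apoa1 was called lower in Tmem173iΔmye mice (log2 -4.49, SE 0.98, edgeR adjusted p 0.0491), as 1 of 6 markers tested. The part of liver RNA in the fibrinogen counts was not tested.

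**Figure D4:**
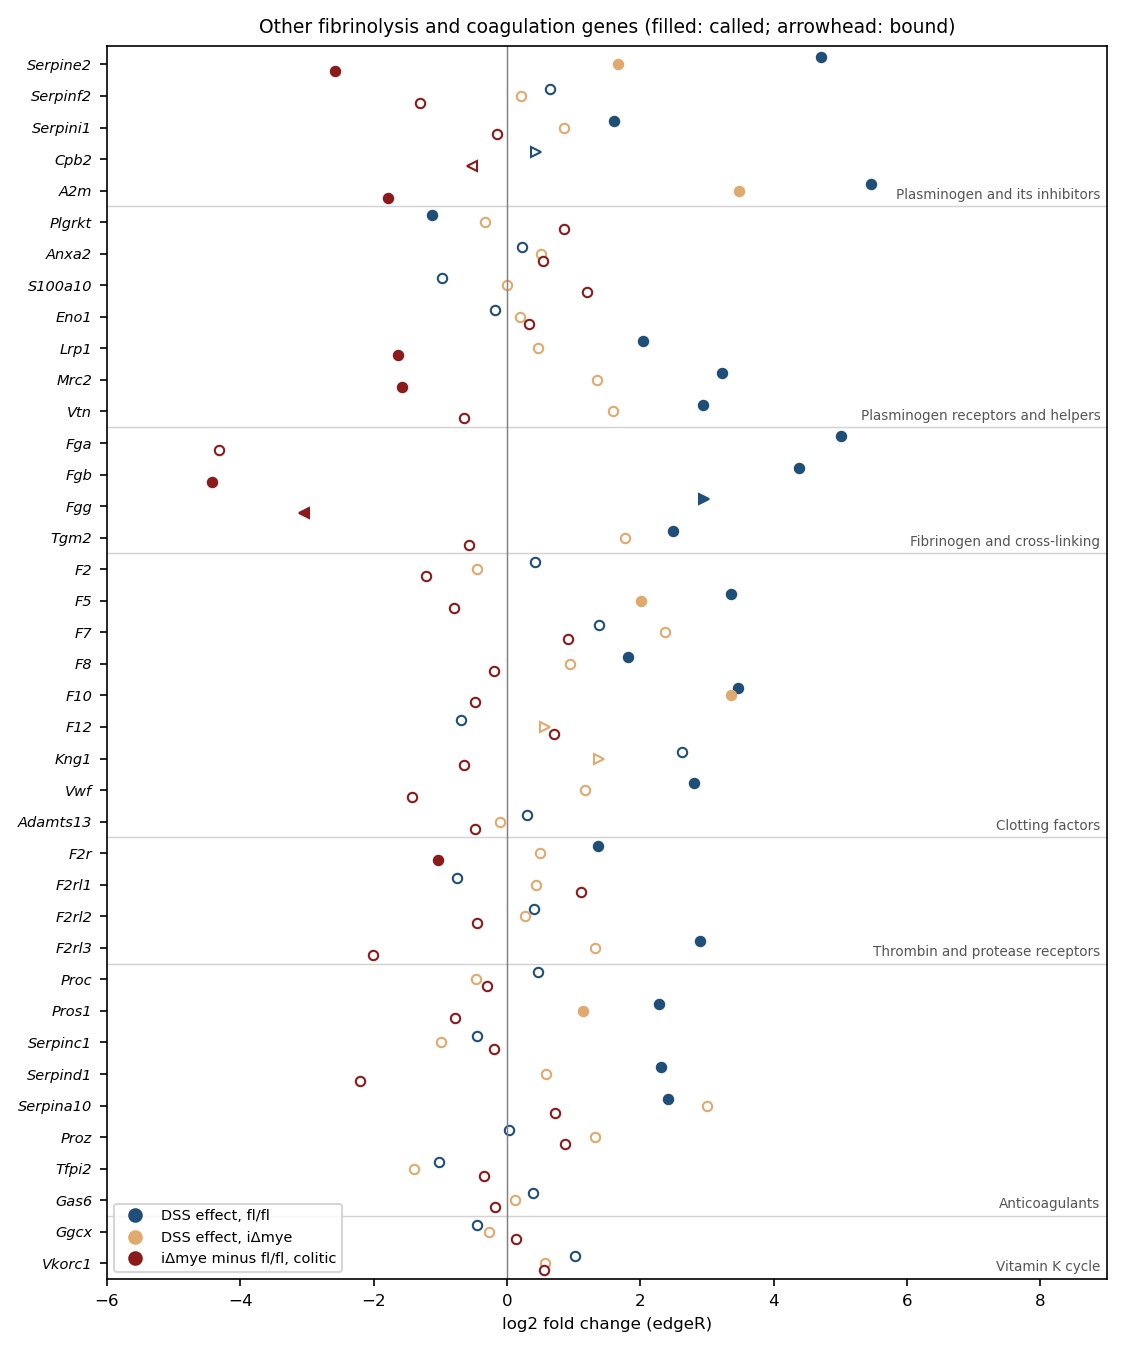
Log2 fold change (horizontal axis) of other genes of the list, by role, for DSS in each genotype and for the colitic genotypes, filled where called, with arrowheads for bounds where a group was at the floor. Serpine2 lies at 4.72 for DSS in Tmem173fl/fl and 1.67 in Tmem173iΔmye mice, and no filled point for the colitic genotypes lies above 0.

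Markers of several cell types that could carry these genes moved with the same groups. All 10 endothelial markers were called higher with DSS in Tmem173fl/fl mice, and 5 were lower between colitic genotypes. Their sum was 134 to 149 CPM and 146 to 165 CPM in untreated Tmem173fl/fl and Tmem173iΔmye mice, 523 to 743 CPM in colitic Tmem173fl/fl mice and 220 to 387 CPM in colitic Tmem173iΔmye mice. Thbd per 1000 CPM of that sum was 149, 150, 148 and 114 CPM on average in those 4 groups, with 75.0 to 239 in colitic Tmem173fl/fl mice and 112 to 116 in colitic Tmem173iΔmye mice. Procr was 45.9, 46.1, 39.9 and 25.9 on the same scale, and Tfpi was 70.9, 61.1, 43.7 and 66.5. Plat was 67.5, 73.2, 105 and 108, and its colitic ranges of 65.4 to 164 and 99.2 to 122 overlapped. The endothelial part in the results for these genes was not tested.

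Of 12 monocyte and macrophage markers, 9 were called higher with DSS in Tmem173fl/fl mice and only 2 lower between colitic genotypes. They summed to 295 to 393 CPM in Tmem173fl/fl and 316 to 429 CPM in Tmem173iΔmye mice without DSS. With DSS they summed to 1031 to 1433 CPM in Tmem173fl/fl and 429 to 820 CPM in Tmem173iΔmye mice, and replicate 5 held the lowest value. Per 1000 CPM of that sum F13a1 was 35.1 and 42.8 CPM without DSS, 63.4 to 83.2 in colitic Tmem173fl/fl and 48.3 to 62.3 in colitic Tmem173iΔmye mice. On that scale Plau was 69.1 to 74.7 in Tmem173fl/fl and 53.8 to 61.0 in Tmem173iΔmye mice without DSS, and 86.3 to 217 and 41.8 to 66.6 with it, so the genotypes did not overlap in either state. Plaur was 37.4 to 70.4 and 55.5 to 71.9 in the colitic groups, which overlapped as its CPM did. The macrophage part in these results was not tested.

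Fibroblast markers, called higher for 8 of 8 with DSS in Tmem173fl/fl mice and lower for 6 of 8 between colitic genotypes, summed to 8204 to 10397 CPM in colitic Tmem173fl/fl and 2412 to 3501 CPM in colitic Tmem173iΔmye mice, from 1214 to 1555 CPM in untreated mice. Plau per 1000 CPM of that sum was 18.6 and 14.9 without DSS and 18.7 and 12.5 with it, and the colitic ranges of 14.1 to 27.0 and 6.01 to 17.5 overlapped. Platelet markers summed to 58.6 to 78.3 CPM in colitic Tmem173fl/fl mice and 11.5 to 15.5 CPM in colitic Tmem173iΔmye mice, with 3.71 to 9.44 CPM in untreated mice. Of these 8 markers 7 were tested, and Gp1bb was at 0 in every group. With DSS in Tmem173fl/fl mice 6 were called higher and Gp6 was at -1.41 (edgeR adjusted p 0.149), and 4 were lower between colitic genotypes. Erythroid markers summed to 152 to 323 CPM in colitic Tmem173fl/fl mice and 23.8 to 29.0 CPM in colitic Tmem173iΔmye mice, with 4.07 to 6.59 CPM and 4.98 to 60.4 CPM in untreated Tmem173fl/fl and Tmem173iΔmye mice. Platelets also carry F13a1, and the part of fibroblasts, platelets and blood in the results was not tested. Of 10 colon epithelial markers, 7 were called lower with DSS in Tmem173fl/fl mice and 1, Car1, higher (log2 1.63, edgeR adjusted p 0.00293). Between colitic genotypes 1 was called higher and 0 lower in Tmem173iΔmye mice. Their sum went down with DSS, at 12042 to 19097 CPM in colitic Tmem173fl/fl mice and 21816 to 34127 CPM in untreated ones. It was 16787 to 25914 CPM in colitic Tmem173iΔmye mice. F3 per 1000 CPM of that sum was 2.46 CPM in untreated and 5.14 to 6.65 CPM in colitic Tmem173fl/fl mice, and 1.76 and 2.31 to 4.73 CPM in Tmem173iΔmye mice. Neutrophil markers, all 10 called higher with DSS in Tmem173fl/fl mice and 6 lower between colitic genotypes, summed to 471 to 786 CPM and 210 to 330 CPM in the colitic groups. Mesothelial markers were called higher for 4 of 6 with DSS in Tmem173fl/fl mice, while their sum was 102 to 130 CPM without and 85.6 to 194 CPM with DSS. The sum of 6 pancreas acinar markers ran from 0 to 2159 CPM in untreated and from 407 to 6669 CPM in colitic Tmem173fl/fl libraries, and from 0.243 to 1320 CPM and 0.304 to 7556 CPM in Tmem173iΔmye libraries. The part of mesothelium and pancreas in the results was not tested.

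The genes most like each of the 9 were named by Pearson's r of log2(CPM + 0.5) over the 12 libraries, among 14559 genes with a mean of at least 1 FPKM. The libraries share the split by DSS, so r is high for many genes and is only a description. Plau was most like Bdkrb2 (0.994), Chst11 (0.986) and Slc7a8 (0.981), and F13a1 most like Cd163 (0.991), a macrophage scavenger receptor, Lhfp (0.990) and Slit3 (0.989). Plaur was most like Hoxd8, Socs3 and Cers2 (0.990 to 0.989), Plat like Fgf2, Thbs1 and Rasl11a (0.988 to 0.987) and Tfpi like Mdfic, Impact and Timp2 (0.984 to 0.976). Procr was most like Mapkapk2, Bmp4 and Nrgn (0.980 to 0.953), and Thbd like Tnc, Mt2 and Tubb6 (0.975 to 0.970). F3 reached 0.897 with Yaf2, followed by Rab11b and Lats2. Serpinb2, with few counts, reached 0.934 with Eif1b, followed by Gm16536 and Zfp772. Among the 9 genes themselves r was highest for Plat with F13a1 (0.964) and lowest for Serpinb2 with Procr (-0.01).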

How the data were processed

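RNA was extracted from mouse colon with TRIzol, purified with lithium chloride and made into libraries with a NEBNext Ultra kit. Per the submitters' processing notes, CASAVA 1.8, fastp, HISAT2 2.0.5, featureCounts 1.5.0-p3, DESeq2 1.20.0 and GRCm38 were used. The strand setting and annotation release are not given in the sources used here. The authors deposited raw counts per gene and FPKM for each library. They also deposited group means, log2 fold changes and p-values of their own comparisons, which were not used. Counts were tested with edgeR 4.0.16 (R 4.3.3), with TMM scaling and glmQLFTest, in genes that reached an FPKM of 0.1 in 3 or more libraries. Fits held the groups compared, and the interaction held all 12 libraries. The SE is the log2 fold change divided by the square root of F. P-values were adjusted by Benjamini-Hochberg over all genes tested. They weigh a change against the spread between libraries within all groups of the fit, which edgeR estimates with information shared over genes. The titles number the libraries of a group as replicates. With 3 against 3 an exact permutation test cannot go below 0.1. Depth was 13823237 to 18718915 counts per library, and the floor was set at 3 counts in a library. Named by rule were the 9 genes, the 12 called pathway genes with the lowest adjusted p and the 3 genes most like each member. Of the list, Plg, Plgrkt, Anxa2, S100a10, F2rl1, Fga, Fgb and Fgg were named outside that rule. Members, lists and motifs were chosen with earlier results of these data known. Alternatives were DESeq2 1.42.0, RLE size factors, other filters, all 12 libraries in 1 fit, other thresholds, the replicate number as a block and leaving out 1 library at a time. Scripts were tested on simulated data. Promoter sequences are from RefSeq (GRCm38.p6). The values of 1 gene that the rule selects are not reported here, although the counts and medians over the list hold it.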

Additional observations from a re-analysis of the deposited data

Results flagged for a closer look

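For 4 of the 9 genes the DSS effect differed between the genotypes by the edgeR interaction test, beside 1.61% of all genes called lower. The difference was -1.89 for Plau, -1.66 for Thbd, -1.66 for F13a1 and -1.37 for Plat on the log2 scale, each a smaller rise in Tmem173iΔmye mice. The DSS effects were 2.75 and 0.80 for Plau, 2.23 and 0.50 for Thbd, 2.94 and 1.21 for F13a1 and 2.87 and 1.43 for Plat, in Tmem173fl/fl and Tmem173iΔmye mice. Without replicate 5 of the colitic Tmem173iΔmye mice 2 of the 9 genes were called for the interaction, Plau at -1.58 and F13a1 at -1.39. Leaving out any of 8 of the 12 libraries left 0 called.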

How the results depend on the processing

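The direction of each called gene held in all alternatives run. For DSS in Tmem173fl/fl mice 7 to 9 of the 9 genes were called. The other counts moved, and the cause was not tested. For DSS in Tmem173iΔmye mice the 2 genes became 4 and the 6 of the list became 16 with an unadjusted p, 4 and 10 with the replicate block, and the list gave 13 with DESeq2, 11 with no filter and 12 in 1 fit of all libraries. Leaving out 1 library gave 0 to 4 genes and 0 to 11 of the list. Between colitic genotypes the 2 genes became 5 with an unadjusted p, DESeq2, no filter or 1 fit of all libraries and 1 with RLE size factors or filterByExpr. The 8 of the list became 14, 14, 13 and 13 with those first 4 settings, and leaving out 1 library gave 0 to 5 genes and 2 to 12 of the list. For the interaction the 4 genes became 2 with the replicate block, and the 4 of the list became 13 with an unadjusted p, 7 with DESeq2 and 8 with no filter. Leaving out 1 library gave 0 to 6 genes and 2 to 11 of the list. An unadjusted edgeR p under 0.05, without the fold limit, was also common over all 24102 genes tested. For DSS in Tmem173iΔmye mice it was met by 6 of the 9 genes, 19 of the 40 list genes and 3749 of all genes. The counts were 6, 18 and 4869 between colitic genotypes and 6, 15 and 4361 for the interaction.

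The labels do not say whether replicate numbers pair the mice. The deviations of same-numbered libraries correlated at -0.21 to 0.27 and those of differently numbered ones at -0.50 to 0.41. With 3 libraries per group these values cannot decide whether mice shared a litter or cage. Under that replicate block Serpinb2 turned to -0.96 between colitic genotypes and -1.69 for the interaction, and the F3 interaction to -0.081 (-0.0084 with no filter). Leaving out 1 library, values that were not called changed sign for Procr with DSS in Tmem173iΔmye mice (-0.25 to 0.51), between untreated genotypes for Procr (-0.0078 to 0.43), Tfpi (-0.21 to 0.19) and Serpinb2 (-0.72 to 1.35), between colitic genotypes for Serpinb2 (-0.79 to 1.54) and for the interaction of Serpinb2 (-1.50 to 1.79) and F3 (-0.11 to 0.28). Serpinb2 had 2 to 92 counts per library, with 92 in colitic Tmem173iΔmye replicate 5 and 16 in untreated Tmem173iΔmye replicate 1. The part of depth in its changes of sign was not tested. Calls over all genes moved too. Leaving out 1 library gave 51 to 1469 for DSS in Tmem173iΔmye mice, 27 to 1593 between colitic genotypes and 267 to 1728 for the interaction. The 6 other refits gave 463 to 1369, 627 to 1619 and 590 to 1364, and the changed thresholds are not in these ranges.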
